A study of Rattus norvegicus with 196 samples.

Results

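Jmjd6, Kat2a, Hdac8 and Auts2 are 4 genes whose products act on chromatin or on the proteins that read and transcribe it, and their transcripts were followed here through 25 regions of the rat brain after fluoxetine. The members were chosen by name: the study pairs these 4 symbols with 1 transcript each (ENSRNOT00000064671, ENSRNOT00000055250, ENSRNOT00000004224 and ENSRNOT00000001182), and these are 4 of the 29188 transcripts counted. That list of names holds transcripts that the study itself called in these samples, so the presence of the members on it is not independent of the fluoxetine response. Other transcripts of the same genes were not analysed here.

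Fluoxetine, a selective serotonin reuptake inhibitor, was given in the drinking water at 18 mg/kg for 6 weeks to male Long-Evans rats that were 2 months old (FT), and Sham rats received water without the drug. The animals were naive, without a stress or disease model, and each sample was a pool of tissue punches from several animals. There were 98 FT and 98 Sham libraries from the same 25 regions, named as in the labels, among them the shell and core of the accumbens (NAcSh, NAcC), the lateral and medial septum (LS, MS), the bed nucleus of the stria terminalis (BNST), the mediodorsal thalamus (MDT), the basolateral and central medial amygdala (BLA, CMA) and the dorsal and ventral dentate gyrus (dorDG, venDG). Libraries carried the replicate numbers 1, 3, 4 and 5, and FT and Sham samples of a number were processed in parallel. In the medial preoptic area (mPoA) FT had only numbers 4 and 5, and in the arcuate nucleus (Arc) Sham had only numbers 4 and 5, so both comparisons rest on those 2 pairs.

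Chromatin is opened and closed by enzymes that add or remove small groups on histones and by complexes that read them. Kat2a, also known as Gcn5, is the acetyltransferase of the SAGA and ATAC coactivator complexes. Hdac8 is an X-linked class I, zinc-dependent deacetylase that also acts on the cohesin subunit Smc3. Jmjd6 is a JmjC-domain oxygenase that hydroxylates lysines of splicing factors such as U2af2 and has been linked to the release of paused RNA polymerase II. Auts2, a gene linked to autism and intellectual disability, encodes a subunit of a non-canonical Polycomb complex that can activate transcription in neurons.

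The RefSeq tables held promoters of 2 members, Jmjd6 and Hdac8, and these are shown because the fold changes of the 2 transcripts had opposite signs in every region. Both run 5′ to 3′ over the 250 bases before the annotated start in the GRCr8 assembly, and both genes lie on the minus strand, at chr10:102545987-102546236 and chrX:71632866-71633115. Capitals mark matches on either strand to the searched motifs, which were CCAAT of the CCAAT box, the TATA box letters TATAAA, the GC box letters GGGCGG and, for the cAMP response element, TGACG. On the printed strand this last match reads CGTCA.
Jmjd6: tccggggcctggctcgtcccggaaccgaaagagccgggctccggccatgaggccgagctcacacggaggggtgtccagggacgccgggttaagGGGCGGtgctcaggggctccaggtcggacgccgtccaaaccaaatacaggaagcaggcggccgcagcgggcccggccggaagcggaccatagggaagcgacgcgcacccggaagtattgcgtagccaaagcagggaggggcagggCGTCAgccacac
Hdac8: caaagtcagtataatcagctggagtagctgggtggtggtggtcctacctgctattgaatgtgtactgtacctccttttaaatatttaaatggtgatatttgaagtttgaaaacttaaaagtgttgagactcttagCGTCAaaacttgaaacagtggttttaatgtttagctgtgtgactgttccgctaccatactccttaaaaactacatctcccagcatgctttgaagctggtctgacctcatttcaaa
The Jmjd6 promoter was 69.6% G and C and held 26 CpG dinucleotides, and 8.2% of the 33469 rat promoters of this length were richer in G and C. The Hdac8 promoter was 38.8% G and C with 2 CpG dinucleotides, and 87.9% of promoters were richer. Both held 1 TGACG match, which 18.2% of promoters have, and that of Jmjd6 also held 1 GGGCGG match, which 30.5% have. CCAAT (34.0% of promoters) and TATAAA (12.9%) were not found in either window. The matches are letters in a reference sequence and were not tested for binding.

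Library totals ran from 4586 to 50893913 counts with a median of 11921178. The library of 4586 counts, Sham replicate 3 of the nucleus of the solitary tract (Nts), held no count of any member, and the next smallest, Sham replicate 3 of the infralimbic cortex (ILC), held 543403. Replicate 3 also stood apart in composition, with a median of 68.2% of counts in its 50 most abundant transcripts against 28.3% to 34.8% in the other numbers. Regional markers were partly in place: Adora2a was highest in NAcC and Th and Slc6a3 in the ventral tegmental area (VTA). Others went against the labels in Sham, since Hcrt, the orexin precursor of the lateral hypothalamus (LH), was highest in the ventromedial hypothalamus (VMH) and Neurod1 was highest in the periaqueductal gray (PAG) rather than the dentate gyrus. Avp and Oxt, the peptides of magnocellular neurons, had Sham medians of 0.219 and 0.261 CPM (counts scaled to the library's effective size) in the region labelled PVN, where the thalamic marker Tcf7l2 was second highest of the regions at 399.7 CPM. The labels do not spell PVN out, and the study's list of regions gives it as the paraventricular nucleus of the thalamus, not of the hypothalamus.

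FT against Sham was tested within each region by the quasi-likelihood test of edgeR with the replicate number as a block. A transcript was called at an absolute log2 fold change of at least 0.32 together with an adjusted p, by Benjamini and Hochberg over all transcripts of the region, of 0.1 or less. Of 100 tests of the members, 7 were called, 3 higher and 4 lower in FT, where 1.93% of all transcript tests were called, 1.01% higher and 0.913% lower. The calls fell in mPoA, where 9.59% of all transcripts were called (4.85% higher, 4.74% lower), in Arc, where 24.6% were (13.7% and 10.8%), and in Nts, where 4.16% were (1.8% and 2.36%). In the other 22 regions none of the members was called by edgeR, but few transcripts of any kind were. The share of all transcripts called was 6.6% in the raphe and 0.465% in the cingulate cortex. In the rest it ran from 0 to 0.229%, the highest being NAcC. DESeq2 with the same block called 16 of 100, where 4.33% of all its transcript tests were called: Jmjd6 higher in 8 regions, Kat2a higher in 3, Hdac8 lower in 3 and Auts2 lower in 2. It gave no adjusted p for Jmjd6 in LS, for Hdac8 in LS, MDT, CMA and Nts, and for Auts2 in LS and Nts. The share of all transcript tests leaves out tests without an adjusted p, while the 100 includes them. Without the replicate block edgeR called 0 of 100 and 0.000299% of all transcript tests, with an unadjusted p under 0.05 in 3 regions for Jmjd6, 2 for Kat2a, 5 for Hdac8 and 1 for Auts2.

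**Figure D1:**
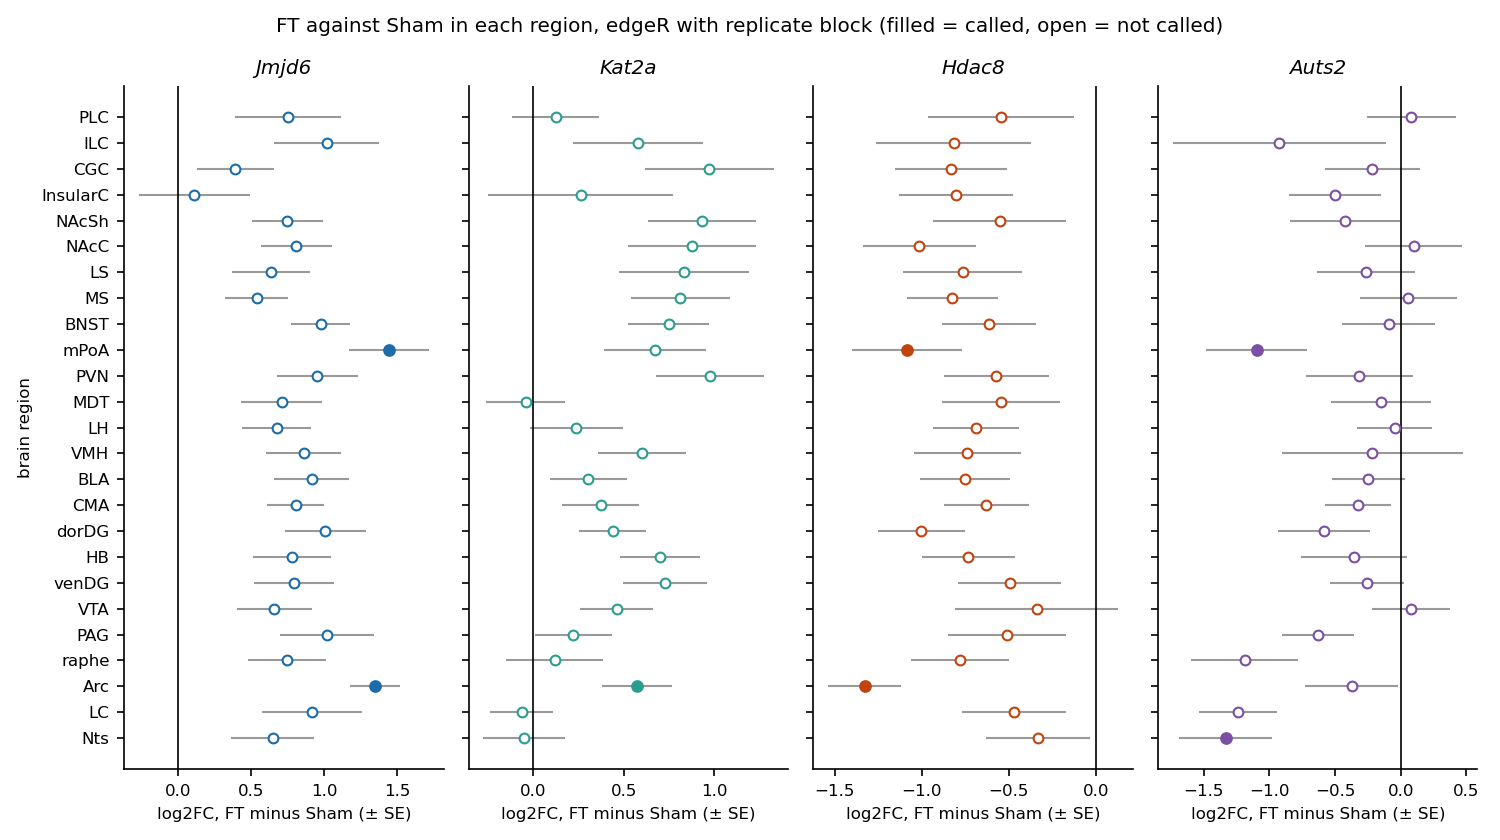
Log2 fold change of FT against Sham (x axis) in each of the 25 regions (y axis) for the 4 members, by edgeR with the replicate block; error bars are 1 standard error, filled points were called and open points were not. Every Jmjd6 point lies above 0 and every Hdac8 point below it, while 7 points in all are filled.

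Jmjd6 had a positive fold change in 25 of 25 regions, from 0.11 in the insular cortex (InsularC) to 1.45 in mPoA on the log2 scale, with a median of 0.79. The unadjusted p was under 0.05 in 22 regions and the call was passed in mPoA and Arc. A fold change of 1 sign in every region was not particular to Jmjd6 and Hdac8. Of the other chromatin genes named below, Trim28, Sap30l and Cdk9 were positive and Baz2a and Ccnt2 negative in 25 of 25 regions. The rest of those named had both signs. Elsewhere on the chromatin list, Setdb1, Rbbp4, Smyd2 and Morc2 were positive and Kmt2d, Prmt1 and Cdyl2 negative in 25 of 25. The share of all transcripts with 1 sign throughout was not counted, and regions of a replicate number may come from the same animals.

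In mPoA, the hypothalamic area that serves reproductive and parental behaviour, Jmjd6 stood at 61.6 CPM in FT replicate 4 and 76.2 in FT replicate 5. The Sham libraries held 24.5, 16.3, 28.5 and 22.1 CPM in replicates 1, 3, 4 and 5. Both FT libraries lay above all 4 Sham libraries, but Sham replicates 1 and 3 had no FT partner and did not enter the estimate. The share of all transcripts that part the libraries in this way was not counted, here or for the other members. The fitted log2 fold change was 1.45 (SE 0.27, edgeR adjusted p = 0.000155). In Arc, which holds the neurons that set appetite, the Sham libraries held 24.5 CPM in replicate 4 and 24.5 in replicate 5. The FT libraries held 29.0, 16.7, 53.1 and 73.8 CPM in replicates 1, 3, 4 and 5. FT replicate 3 was below both Sham libraries, but it had no Sham partner and did not enter the estimate, which was 1.35 (SE 0.17, edgeR adjusted p = 0.0159). In InsularC, the smallest change, Sham held 24.7, 15.4, 23.5 and 30.8 CPM of Jmjd6 and FT held 13.3, 11.6, 58.2 and 40.4 in replicates 1, 3, 4 and 5. FT was below Sham in replicates 1 and 3 and above it in replicates 4 and 5 there, and the log2 fold change of 0.11 (SE 0.38) was not called.

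Kat2a was higher in FT in 22 of 25 regions, with a median log2 fold change of 0.57 and a range from -0.06 in the locus coeruleus (LC) to 0.98 in PVN. By edgeR it was called in Arc alone, where the Sham libraries held 36.0 and 47.5 CPM in replicates 4 and 5. The FT libraries of the same numbers held 67.5 and 56.3 CPM, and those of replicates 1 and 3 held 61.7 and 27.1. The 2 paired FT libraries were above both Sham libraries, and the log2 fold change was 0.57 (SE 0.19, edgeR adjusted p = 0.0950). With DESeq2 that call was lost (adjusted p = 0.372). In PVN, the largest change, Sham held 37.1, 27.8, 20.2 and 55.0 CPM and FT held 96.4, 40.0, 60.2 and 60.5 in replicates 1, 3, 4 and 5. All 4 FT libraries were above their Sham partners but the groups overlapped, and the change was not called by edgeR (SE 0.30, adjusted p = 0.215) while DESeq2 called it among 5.06% of the transcripts there.

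Hdac8 had a negative fold change in 25 of 25 regions, from -0.33 in Nts to -1.33 in Arc, with a median of -0.73 and an unadjusted p under 0.05 in 15. In Arc the Sham libraries held 17.9 and 18.5 CPM in replicates 4 and 5. The FT libraries held 7.32, 7.57, 8.22 and 6.35 CPM in replicates 1, 3, 4 and 5. All 4 FT libraries lay below both Sham libraries, but FT replicates 1 and 3 had no Sham partner and did not enter the estimate. The log2 fold change was -1.33 (SE 0.21, edgeR adjusted p = 0.0219), a call that DESeq2 also made among 8.82% of transcripts. In mPoA the FT libraries held 7.09 and 6.18 CPM against 12.7, 7.43, 13.9 and 14.1 in Sham replicates 1, 3, 4 and 5. Both FT libraries were below every Sham library, replicate 3 by the smallest margin. Sham replicates 1 and 3 had no FT partner and did not enter the estimate. The log2 fold change was -1.08 (SE 0.32, edgeR adjusted p = 0.0228). DESeq2 did not call it (adjusted p = 0.188). The paired Hdac8 libraries held 305 and 453 counts in Sham against 169 and 88 in FT of Arc, and 365 and 261 against 135 and 185 in mPoA.

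Auts2 was lower in FT in 21 of 25 regions, but by less, with a median log2 fold change of -0.31 and an unadjusted p under 0.05 in 5. In Nts, the visceral sensory nucleus of the brainstem, Sham held 4.91, 0, 2.74 and 3.40 CPM in replicates 1, 3, 4 and 5. FT held 1.04, 48.3, 1.54 and 1.52 CPM. FT was below Sham in replicates 1, 4 and 5, and the Sham library at 0 is the one of 4586 counts, in which 3 counts would already make 654 CPM. The log2 fold change was -1.33 (SE 0.35, edgeR adjusted p = 0.0495), and by edgeR the call was lost without replicate 3 (-1.48, adjusted p = 0.284) and without replicate 5 (-1.39, adjusted p = 0.104). DESeq2 did not call it either and gave no adjusted p (log2 fold change -1.19, SE 0.68). In mPoA the FT libraries held 1.21 and 1.47 CPM against 3.29, 51.0, 1.60 and 4.6 in Sham replicates 1, 3, 4 and 5. Both were below every Sham library, but Sham replicates 1 and 3 had no FT partner and did not enter the estimate. The log2 fold change was -1.10 (SE 0.38, edgeR adjusted p = 0.0725). That call was lost with DESeq2 (adjusted p = 0.343) and without replicate 3 (adjusted p = 0.209 by edgeR). Auts2 had a median of 65.5 counts per library, and its level differed widely by replicate number: the median over Sham libraries was 42.1 CPM in replicate 3, 5.22 in replicate 1, 1.88 in replicate 4 and 3.86 in replicate 5.

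The direction of the members was then read pair by pair, as the log2 ratio of FT to Sham within a region and replicate number. Jmjd6 was higher in FT in 25 of 25 regions in replicate 4 (median 1.16) and in 25 of 25 in replicate 5 (median 1.24). In replicates 1 and 3 it was higher in 19 and 17 of 22 regions with medians of 0.22 and 0.26. FT libraries of replicate 5 held 36.6 to 103.1 CPM of Jmjd6 and Sham libraries 18.5 to 30.8. In replicate 4 the ranges were 37.0 to 87.2 and 17.4 to 37.3. In replicate 3 the ranges ran over each other, 8.72 to 17.6 CPM in FT and 5.69 to 16.3 in Sham. The share of all transcripts with FT and Sham ranges apart was not counted, and regions of a replicate number may come from the same animals.

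Hdac8 was lower in FT in 25 of 25 regions in replicates 4 and 5, with medians of -0.89 and -0.94. In replicate 1 it was lower in 12 of 22 (median -0.44) and in replicate 3 in 17 of 22 (median -0.36). Jmjd6 was higher and Hdac8 lower in the same pair in 74 of 94 pairs.

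Kat2a and Auts2 each had their largest median ratio in a single replicate number. Kat2a had a median ratio of 1.06 in replicate 4, against 0.41, 0.19 and 0.14 in replicates 1, 3 and 5. Auts2 had a median of -1.32 in replicate 5, where it was lower in 25 of 25 regions, against -0.01, 0.18 and -0.26 in replicates 1, 3 and 4, and in replicate 3 it was higher in 18 of 22.

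**Figure D2:**
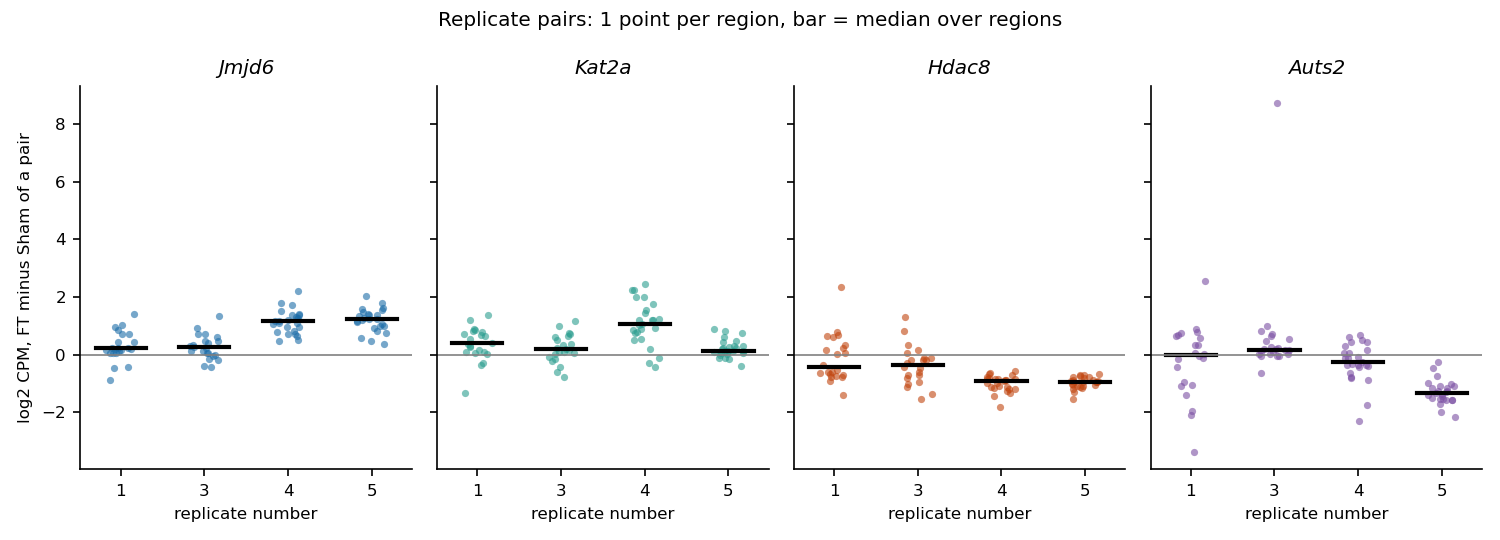
Log2 ratio of FT to Sham (y axis) for each region within each replicate number (x axis), 1 panel per member; each point is 1 pair of libraries and the bar is the median. Jmjd6 and Hdac8 lie wholly on 1 side of 0 in replicates 4 and 5, and Kat2a and Auts2 have their largest median in replicates 4 and 5 respectively; the far Auts2 point in replicate 3 is ILC, where the Sham library held no count.

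All transcripts also differed more within pairs 4 and 5. The median absolute ratio over 19230 transcripts was 0.25 and 0.32 in replicates 4 and 5, against 0.18 and 0.15 in replicates 1 and 3. Against that spread, 1.65% and 1.40% of transcripts had a higher median ratio than Jmjd6 in replicates 4 and 5, and 2.66% and 7.17% had a lower one than Hdac8. For Kat2a in replicate 4 the share with a higher median was 2.22%, and for Auts2 in replicate 5 the share with a lower one was 2.56%. These shares are descriptions, since the regions of a replicate number may come from the same animals.

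Other properties of the libraries moved within pairs as well. The median share of reads assigned to no feature was 47.5% in FT against 41.1% in Sham of replicate 4, and 43.1% against 46.9% in replicate 5. Of 15 markers of neurons, oligodendrocytes, astrocytes and microglia, 5 had a higher median in FT and 10 a lower one in replicate 4, and the same numbers in replicate 5, against 8 and 7 in replicates 1 and 3. Median log2 ratios of the single markers in replicates 4 and 5 were -1.16 and -1.05 for astrocytes, -0.78 and -0.77 for microglia, -0.42 and -1.27 for neurons and -0.37 and -0.03 for oligodendrocytes. In replicates 1 and 3 they were 0.60 and 0.45 for neurons, -0.15 and -0.12 for astrocytes, 0.05 and 0.20 for microglia and -0.14 and -0.22 for oligodendrocytes. Markers of a class went both ways in replicates 4 and 5. In each, FT was higher for 1 of 3 neuronal, 2 of 5 oligodendrocyte, 1 of 4 astrocyte and 1 of 3 microglial markers. Single neuronal markers ran from -1.36 to 0.45 in replicate 4 and from -1.50 to 0.65 in replicate 5. Astrocyte markers ran from -2.18 to 1.58 and from -2.68 to 1.06. In replicate 4 the summed neuronal markers ran from 649.0 to 2072 CPM in FT and from 708.6 to 2049 in Sham, and the astrocyte markers from 232.5 to 413.0 and from 271.1 to 582.4. In replicate 5 the neuronal ranges were 763.1 to 1549 and 728.2 to 1518 CPM, and the astrocyte ranges 208.7 to 385.1 and 245.6 to 521.0. The summed neuronal markers had medians of 1051 CPM in FT against 1027 in Sham of replicate 4 and 1085 against 1034 in replicate 5. Those of astrocytes had 290.9 against 417.9 and 307.5 against 318.8. Summed oligodendrocyte markers had medians of 382.8 CPM in FT against 500.1 in Sham of replicate 4 and 320.1 against 420.5 in replicate 5, and microglial markers 30.1 against 36.2 and 29.1 against 31.9. No marker of the 15 was at 0 in all libraries and 4 were at 0 in at least 1 of 195. Their part in the members' ratios was not tested, and in bulk tissue fewer cells of a type and less RNA per cell cannot be told apart.

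**Figure D3:**
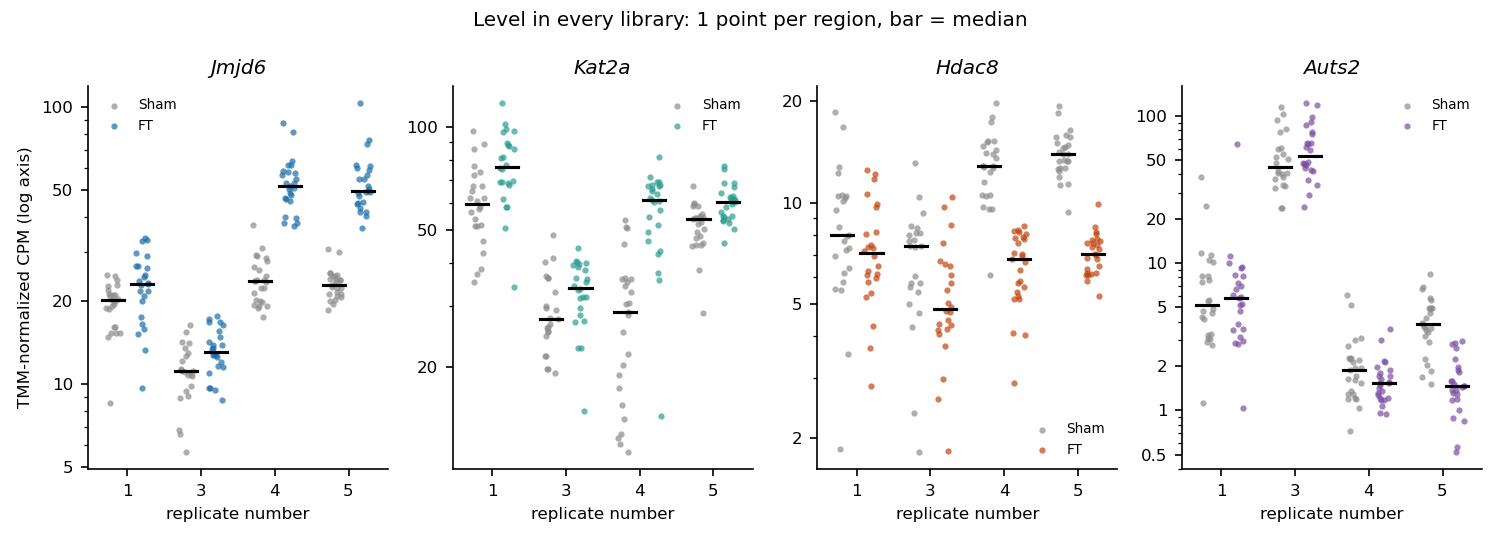
Level of each member in CPM (y axis, log scale) in every library with a count above 0, by replicate number (x axis) and treatment; each point is 1 region and the bar is the median of the points drawn. FT sits above Sham for Jmjd6 and below it for Hdac8 in replicates 4 and 5, and Auts2 is far higher in replicate 3 than in the other numbers.

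The fits were repeated on replicates 4 and 5 alone and on replicates 1 and 3 alone, a choice made after seeing the data. With replicates 4 and 5 only, edgeR called 47 of 100 member tests, where 12.9% of all transcript tests were called, 6.32% higher and 6.54% lower. These were Jmjd6 higher in 17 regions, Hdac8 lower in 17, Kat2a higher in 7 and Auts2 lower in 6, and the median log2 fold changes of Jmjd6 and Hdac8 were 1.18 and -1.03. With replicates 1 and 3 only, 16 of 88 tests were called against 19% of all transcript tests, a share below the background, and Jmjd6 was then called higher in 4 regions and lower in 1, Hdac8 higher in 1, Kat2a higher in 7, and Auts2 higher in 2 and lower in 1. The Jmjd6 call in the lower direction (-0.51), the Hdac8 call in the higher one (0.62) and the lower call of Auts2 (-2.13) were all in Nts, where the Sham library of 4586 counts leaves 1 usable pair. The 7 calls of the fit of all replicates lay in mPoA and Arc, which hold only pairs 4 and 5, and in Nts, where the Sham library of pair 3 has almost no reads. Whether the members differ between these sets of replicates was not tested.

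To give each replicate number 1 value, counts were summed over 21 regions with all 4 pairs. The cingulate cortex (CGC) and Nts were left out of these sums. Jmjd6 stood at 19.6, 11.8, 21.2 and 21.7 CPM in Sham and 24.9, 14.6, 48.2 and 50.6 in FT, in replicates 1, 3, 4 and 5. It was higher in FT in 4 of 4 pairs, by a log2 fold change of 0.77 (SE 0.19), and was not called by edgeR (adjusted p = 0.136). Only 1 of 19230 transcripts was called, 0.0052%. Hdac8 stood at 8.95, 7.15, 12.3 and 13.3 CPM in Sham and 7.74, 5.65, 6.11 and 7.03 in FT. It was lower in 4 of 4 pairs, by -0.63 on the log2 scale (SE 0.18, edgeR adjusted p = 0.155).

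Kat2a stood at 64.0, 31.9, 25.5 and 50.3 CPM in Sham and 83.6, 37.7, 55.8 and 59.1 in FT, higher in 4 of 4 pairs, with a log2 fold change of 0.50 (SE 0.17, edgeR adjusted p = 0.199). Auts2 stood at 6.92, 57.3, 1.93 and 4.25 CPM in Sham and 6.45, 69.9, 1.61 and 1.61 in FT, lower in 3 of 4 pairs, with a log2 fold change of -0.36 (SE 0.24, edgeR adjusted p = 0.474). DESeq2 called Jmjd6 (adjusted p = 0.0170) and Hdac8 (adjusted p = 0.0520) on the same sums and 9.31% of all transcripts. Without replicate 4 the edgeR adjusted p of Jmjd6 was 0.415 and without replicate 5 it was 0.331, while without replicate 1 or 3 it was 0.0536 or 0.0146 and the call was passed, as it then was by 2.74% or 7.18% of all transcripts.

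The fluoxetine effect was not seen to differ among regions for any member. An edgeR F test of equal fold changes in the 21 regions, which took out what the regions of a replicate number share, gave adjusted p values of 0.908 for Jmjd6, 0.416 for Kat2a, 0.996 for Hdac8 and 0.735 for Auts2. In that test 4.74% of 16673 transcripts passed. With simulated 2-fold changes confined to LC among 6 regions, it called 64 of 199 changed transcripts, so many such differences would be missed. CGC, mPoA, Arc and Nts did not enter the F test, so whether their effects differ from those of other regions was not tested.

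Levels among regions were compared in Sham alone, with each member's order of regions as a fitted log2 level around the mean of the regions. Hdac8 differed among regions (edgeR adjusted p = 0.00422, where 75.2% of 17008 transcripts passed), highest in dorDG at 0.68, then in the raphe at 0.58 and Arc at 0.45, and lowest in the prelimbic cortex (PLC) at -0.47. In dorDG it held 16.6 CPM ± 4.31 (SD, n = 4) and in PLC 7.70 ± 4.85. The place of PLC rests on replicate 3, where it was lowest at 1.82 CPM. The lowest region was VTA in replicate 1, CGC (6.09 CPM) in replicate 4 and InsularC in replicate 5. Over 22 regions the Hdac8 levels of 2 Sham replicates correlated with a Pearson's r of 0.11 to 0.59, highest between replicates 4 and 5 (Spearman's rho 0.44), given as a description across regions. For Jmjd6 and Kat2a the highest r was 0.51 and 0.47, both between replicates 1 and 3.

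Auts2 also differed among regions in Sham (edgeR adjusted p = 0.0286), with the widest range of the members, 2.05 on the log2 scale from dorDG at 1.18 to PLC at -0.87. In dorDG the Sham libraries ran from 2.28 to 114.1 CPM, and its second place in ILC rests on replicate 1, since the Sham replicate 3 library there held no count. Jmjd6 passed by a smaller margin (edgeR adjusted p = 0.0578), from 0.44 in the cingulate cortex (CGC, without its replicate 1 pair) to -0.34 in ILC, and Kat2a did not pass (edgeR adjusted p = 0.575). In the FT libraries it was Kat2a that passed (edgeR adjusted p = 0.00484) and Jmjd6 that did not (0.320). The Sham result of Jmjd6 was also lost with no low-count filter (edgeR adjusted p = 0.113) and without replicate 3, 4 or 5 (0.239, 0.409 and 0.115), and that of Hdac8 without replicate 4 (edgeR adjusted p = 0.166). No neighbours in the order of any member differed in a contrast adjusted over all transcripts, while the highest and lowest regions did, with adjusted p values from the same edgeR fit of 0.0182 for Jmjd6, 0.04997 for Kat2a, 0.000634 for Hdac8 and 0.00180 for Auts2. These ends were picked from the order itself.

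**Figure D4:**
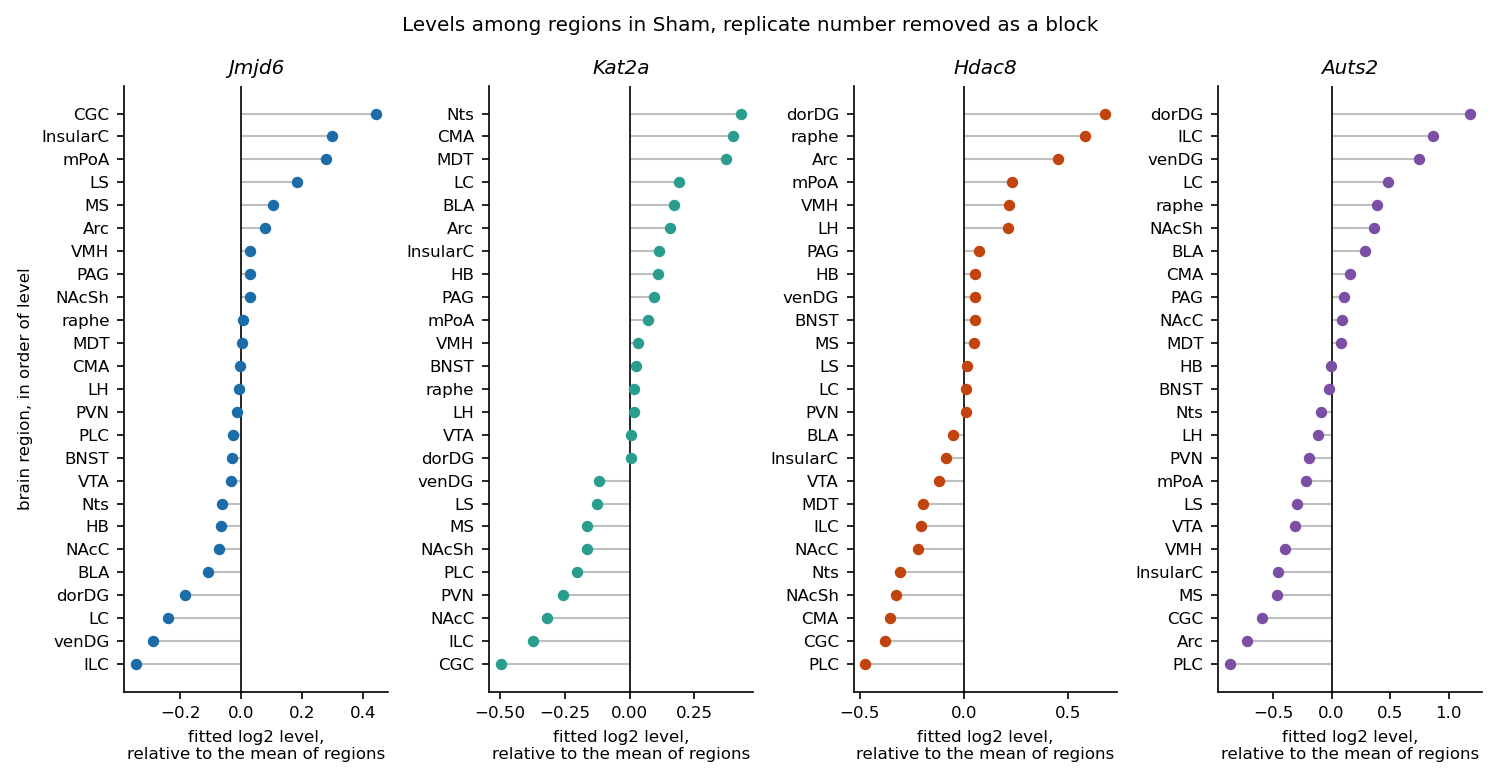
Fitted log2 level of each member in Sham (x axis, relative to the mean over regions) with the 25 regions in order (y axis). Hdac8 and Auts2 are highest in dorDG and lowest in PLC, and no 2 neighbouring regions in an order passed the test of their difference.

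Among the 1844 other transcripts with a name, those whose mean Sham log2 level over the 25 regions was most like Jmjd6 were RGD1304595 (Pearson's r 0.79), Rabl3 (0.78) and Timm17a (0.77). The most like Kat2a were Lin37 (0.86), Mrps11 (0.79) and Ndufs8 (0.78). For Hdac8 they were Tmtc4 (0.70), Dpp6 (0.67) and Hipk2 (0.66), and for Auts2 Rnasek (0.82), Coro2b (0.82) and Coro7 (0.80). Regions with missing Sham replicates differ in their means for that reason, and over the 22 regions with all Sham numbers Rabl3, Lin37, Hipk2 and Coro7 came first.

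The members were set beside a list of 61 chromatin genes from the same table of names, including the 4 members, so the list is no more independent of the study's calls than they are. By edgeR within regions, 107 of 1522 tests on the list were called, 51 higher and 56 lower, or 7.03% against 1.93% of all transcript tests. Of the 61 genes, 54 were called in at least 1 region and 36 in at least 2. Over the 11365 transcripts tested in all 25 regions these shares were 32.5% and 11.8%, with 18.2% called higher and 14.2% called lower in at least 1 region, which is the background of the class counts that follow. The summed fold changes were positive for 34 and negative for 27, with a median of 0.20 against -0.01 over all transcripts.

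Among ATP-dependent remodellers and chaperones 8 of 12 genes were called higher somewhere and 1 lower, and Smarca5, the ISWI ATPase also called Snf2h, was called higher in 4 regions with log2 fold changes of 1.80 in mPoA (SE 0.36), 1.88 in the raphe (SE 0.31), 1.72 in Arc (SE 0.29) and 1.68 in Nts (SE 0.45), with edgeR adjusted p values of 0.000283, 0.0473, 0.0250 and 0.0506. Bcl7a, a BAF complex subunit, was the 1 called lower, in the same 4 regions by -1.07 to -1.18. In the raphe 6.6% of all transcripts were called. Among JmjC proteins and methyltransferases 4 of 12 were called higher and 8 lower. Ehmt2, the histone H3 lysine 9 methyltransferase G9a, was called lower in 3 regions (-0.80 to -1.05), and its zinc finger partner Wiz was called lower in 3 (-1.05 to -1.65).

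In the class of Hdac8, deacetylases and corepressor subunits, 4 of 13 genes were called higher somewhere and 6 lower. Sap30l, a Sin3 complex subunit, was called higher in CGC, where 0.465% of all transcripts were called, and in mPoA, raphe and Arc, by 1.31 to 1.81. In the class of Kat2a, acetyltransferase complexes, 7 of 11 were called higher and 3 lower. Brpf1, a scaffold of the MOZ complex, was called higher in mPoA (1.08) and Arc (1.31), while Mcrs1 was called lower in 4 regions (-0.93 to -1.45) and Dmap1, of the NuA4 complex, in 3 (-0.83 to -1.09).

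Readers and silencing factors split 5 higher and 4 lower of 9. Trim28, the corepressor of zinc finger proteins also called Kap1, was called higher in 4 regions (1.07 to 1.76), as was Cbx3, a heterochromatin protein HP1 isoform, by 0.85 to 1.02. Baz2a, of the nucleolar silencing complex, and Brd3, a bromodomain protein that binds acetylated histones, were each called lower in mPoA, Arc and Nts, by -1.0 to -1.51 and by -0.77 to -1.12.

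Of the genes that work with Jmjd6 in splicing and elongation, Cdk9, the kinase of P-TEFb, was positive in 25 of 25 regions (median 0.58) and called higher in the raphe and Arc. Ccnt2, a cyclin partner of Cdk9, was negative in 25 of 25 (median -0.69) and called lower in mPoA and Arc. U2af2, the splicing factor that Jmjd6 hydroxylates, was negative in 23 of 25 (median -0.92) and called lower in Nts, and Hexim2, an inhibitor of P-TEFb, was negative in 19 of 25 and called lower in the raphe and Arc.

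**Figure D5:**
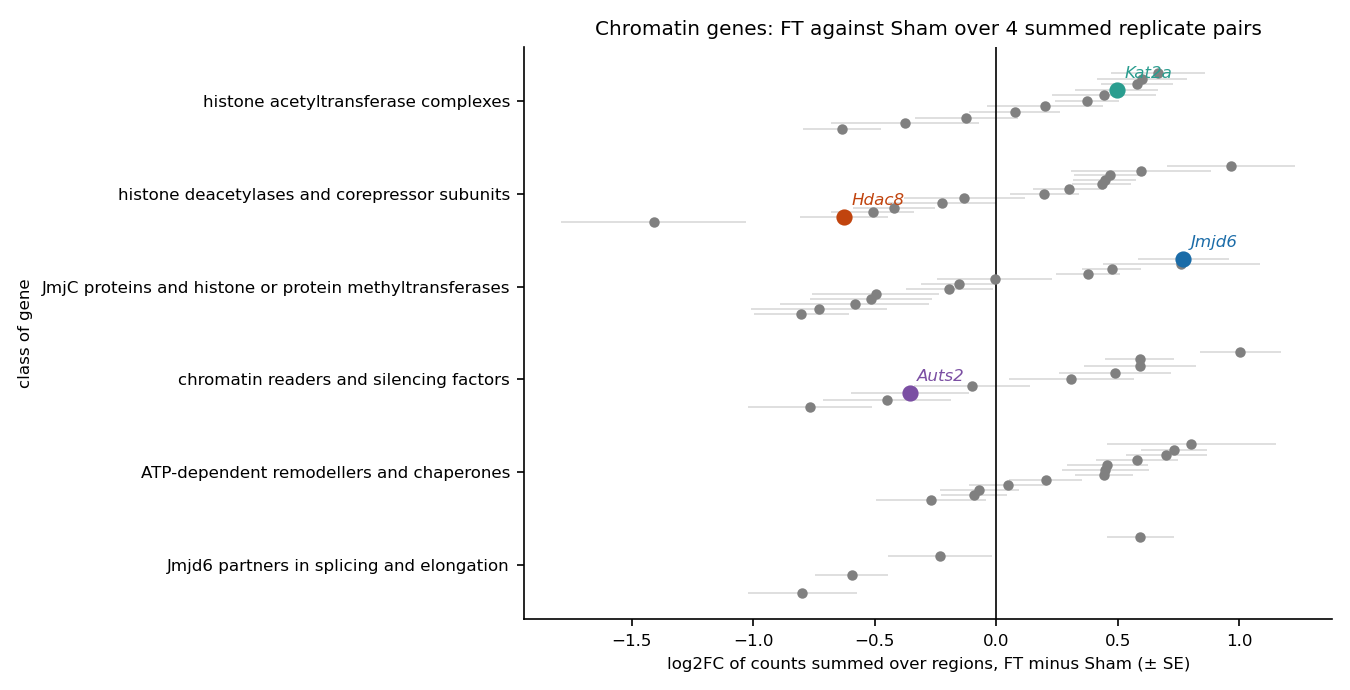
Log2 fold change of FT against Sham on counts summed over 21 regions (x axis) for the 61 listed genes by class (y axis), by edgeR; each point is 1 gene with its standard error and the members are named. Jmjd6 and Kat2a lie to the right of 0 and Hdac8 and Auts2 to the left, inside the range of the other chromatin genes.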

How the data were processed

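RNA of punched brain regions was sequenced in 196 samples as 76 bp paired-end reads. Per the labels and the study's methods, the authors aligned reads to rn5 with STAR and counted them per transcript with HTSeq, and they deposited raw counts with no normalization. The strand setting is not given in the sources used here, so reads of overlapping or antisense genes cannot be told apart. Rows that name no transcript stayed out of library sizes (median 5.52% ambiguous). Raw reads of 8 samples are described as corrupted in the labels, and their counts were used.

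The authors' names for transcripts were taken, without values. The members, the chromatin list and the markers were chosen with earlier results of these data known. Of the chromatin list, genes beyond the members were named if called in 2 or more regions, at most 12, by the number of regions. The 4 partners of Jmjd6 on that list were named in addition, a choice made after their values were seen. For likeness, the 3 transcripts with the highest Pearson's r were named.

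Counts were filtered by filterByExpr (minimum count 10, total 15), scaled by TMM and tested in edgeR 4.0.16 (glmQLFit, glmQLFTest) with the replicate number as a block, and Benjamini-Hochberg adjusted over all transcripts. SE is the absolute log2 fold change over the root of F. Levels are TMM-normalised CPM. Following the study's outlier step, the CGC replicate 1 pair was left out, as read from its plot. Alternatives were DESeq2 1.42.0, no block, RLE factors, no filter, limma and each replicate left out. Same-numbered samples deviated together in regions with 3 or more pairs (every pair's r over 0.1 in 23 of 23). The median of the mean r, taken over all regions, was 0.66. In mPoA and Arc, which have 2 pairs and hold most of the member calls, r was 0.13 and -0.09. The pairing behind the block was thus weak in mPoA and not seen in Arc. Samples were pools. With the block, p-values of FT against Sham measure the spread of FT-to-Sham differences between pairs of pools, which may be partly technical. In mPoA and Arc only 2 pairs inform that spread, so p-values there lean on the dispersion that edgeR shares across transcripts. With simulated 2-fold changes in the raphe, edgeR called 134 of 195 changed transcripts and 10 unchanged ones. Simulated counts had a single dispersion and a change equal in every pair. These rates need not hold in the data, where the pairs differed. RefSeq promoters came from GRCr8 and the counts from rn5, so no coordinates were joined.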

Additional observations from a re-analysis of the deposited data

Results flagged for a closer look

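A library that lies far from the other 3 of its group was looked for in 188 groups of 4 (log2 level of a member, or its 4 summed pair ratios), and 17 were found, where chance flags about 1 in 20 groups. Of these, 14 were replicate 3. For Jmjd6 they were Sham replicate 3 in LH (14.2 CPM), BLA (9.07), the habenula (HB, 10.8), LC (5.69) and Nts (0). For Kat2a they were Sham replicate 4 in PLC (12.4 CPM), FT replicate 3 in dorDG (31.9), Sham replicate 3 in Nts (0) and FT replicate 3 in LC (22.6), and the summed pair ratio of replicate 4 (1.13 on the log2 scale) stood apart from the other 3. For Hdac8 they were Sham replicate 3 in mPoA (7.43 CPM), FT replicate 3 in HB (3.75), Sham replicate 3 in Nts (0) and FT replicate 1 in Nts (9.72). For Auts2 they were Sham replicate 3 in VTA (32.2 CPM) and Nts (0) and FT replicate 3 in Nts (48.3). The 4 zeros are 1 library of 4586 counts, and the cause of the others was not tested.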

How the results depend on the processing

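Of the member tests, 7 were called within regions, and 107 tests on the chromatin list. Without the replicate block edgeR called 0 and 0. DESeq2 called 16 members and 256 on the list, fits with no low-count filter 25 and 323, and an adjusted p of at most 0.05 left 68 on the list. Leaving out 1 replicate number gave 0 (without replicate 5) to 10 members (1 without replicate 4) and 3 to 143 on the list (3 and 9 without replicates 4 and 5), and mPoA and Arc could not be fitted without replicate 4 or 5. Replicates 4 and 5 only gave 47 and 654, and replicates 1 and 3 only 16 and 381. On the summed counts, where 0 members were called, DESeq2 gave 2, no low-count filter 3 and leaving out 1 replicate 0 to 2 (1 without replicate 1, 2 without replicate 3). In Sham, 3 members differed among regions and 0 without the replicate block. Without the block the fold change of Auts2 turned to 1.83 in Nts and to 0.18 on the sums. The cause of these changes was not tested, except that fits without a number hold fewer samples. Hdac8 held fewer than 10 counts in 11 libraries and Auts2 in 5, so single ratios there are imprecise.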
